A study of Mus musculus with 8 samples.

Results

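The genes described here are 7 receptors of the tumour necrosis factor (TNF) receptor superfamily found on T cells, Tnfrsf4, Tnfrsf9, Tnfrsf18, Tnfrsf1b, Cd27, Tnfrsf1a and Fas. The members were every probe set whose platform gene symbol is one of these names, which gave 10 of the 45037 probe sets and 7 of the 18193 genes with a probe set of a single symbol. Tnfrsf9 had 3 probe sets, Tnfrsf1b had 2 and each other receptor had 1. Levels are log2 values of the deposited RMA intensity, and all differences are on that log2 scale. Where a receptor had several probe sets, the one with the highest mean level represents it, and the others are given as further probe sets.

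The samples were mouse CD4+ T cells sorted by fluorescence, 1 Affymetrix array each. Every mouse carried a Foxp3 allele tagged with enhanced green fluorescent protein (EGFP), which marks cells that express the Foxp3 locus. Foxp3 is the X-linked transcription factor of regulatory T cells, and the study's design text gives hemizygous males as the source of the EGFP+ cells. The 4 groups were EGFP+ cells with the mutant allele, called delta in the labels (n = 3), EGFP+ cells with the wild-type (WT) allele (n = 3), EGFP- cells with the mutant allele (n = 1) and EGFP- cells with the WT allele (n = 1). The sources used here give no strain, age or tissue of origin. They also do not say whether replicates are separate animals, and p-values then reflect only the spread between these arrays, which may be technical.

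Receptors of this superfamily bind trimeric ligands and fall into classes by their cytoplasmic part. OX40 (Tnfrsf4), 4-1BB (Tnfrsf9), GITR (Tnfrsf18), TNFR2 (Tnfrsf1b) and CD27 recruit TRAF adaptors, activate NF-kappaB and give T cells costimulatory signals, and OX40, GITR and TNFR2 are known to be high on regulatory T cells. TNFR1 (Tnfrsf1a) and Fas carry a death domain, through which they can assemble complexes that start apoptosis.

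Several of the receptors share a chromosome: chromosome 4 holds Tnfrsf4, Tnfrsf9, Tnfrsf18 and Tnfrsf1b, chromosome 6 holds Cd27 and Tnfrsf1a, and Fas lies on chromosome 19. In the RefSeq annotation 0 protein-coding genes lie between Tnfrsf4 and Tnfrsf18, and 3 lie between Cd27 and Tnfrsf1a. The start regions of Tnfrsf4, Tnfrsf18 and Tnfrsf9 are shown. These receptors had their highest levels in the EGFP+ groups, as described below, and so did Tnfrsf1b, whose window is not printed. Each window runs from 250 bases before a RefSeq transcription start to 50 bases from it (GRCm38.p6, plus strand, 5′ to 3′). Capitals mark matches to the kappaB consensus, to the AP-1 site TGANTCA or to the forkhead site TGTTTAC, searched on both strands.
Tnfrsf4, chr4:156013445-156013744: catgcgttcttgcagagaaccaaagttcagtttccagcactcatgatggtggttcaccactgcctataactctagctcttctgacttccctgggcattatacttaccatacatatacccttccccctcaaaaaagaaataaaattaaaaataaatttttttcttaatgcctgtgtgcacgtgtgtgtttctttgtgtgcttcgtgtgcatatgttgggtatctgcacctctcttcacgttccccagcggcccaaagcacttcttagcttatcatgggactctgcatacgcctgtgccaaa
Tnfrsf18, chr4:156026072-156026371: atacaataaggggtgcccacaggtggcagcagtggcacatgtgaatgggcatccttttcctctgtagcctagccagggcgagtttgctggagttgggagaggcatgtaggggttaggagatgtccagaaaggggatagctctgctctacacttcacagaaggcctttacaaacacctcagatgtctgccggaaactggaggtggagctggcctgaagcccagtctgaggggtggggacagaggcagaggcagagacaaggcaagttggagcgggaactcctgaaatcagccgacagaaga
Tnfrsf9, chr4:150927749-150928048: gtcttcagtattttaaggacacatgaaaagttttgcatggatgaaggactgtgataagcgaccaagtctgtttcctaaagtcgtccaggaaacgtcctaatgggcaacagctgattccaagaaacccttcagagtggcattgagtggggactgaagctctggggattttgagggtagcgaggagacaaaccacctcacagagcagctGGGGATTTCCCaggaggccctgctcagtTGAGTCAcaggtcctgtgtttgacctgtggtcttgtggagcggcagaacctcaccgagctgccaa
The Tnfrsf9 window held 2 overlapping kappaB matches, at -43 and -42 from the start, and an AP-1 match at -15 that did not overlap them. The windows of Tnfrsf4 and Tnfrsf18 held 0 matches, as did the other annotated start of Tnfrsf9 and the windows of Tnfrsf1b, Tnfrsf1a and Cd27, while that of Fas held an AP-1 match at -211. Of 32851 RefSeq windows of the same length, 8.46% held a kappaB match, 7.81% an AP-1 match and 3.65% a forkhead match. A match describes these letters only, and nothing about a factor follows from its presence or absence.

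The arrays had median intensities between 53.3 and 54.8. Of 9 measured T cell markers all 9 exceeded the overall median of probe sets (log2 5.75) in every array. The probe set of Foxp3 read 11.10, 11.51 and 11.21 in the mutant EGFP+ arrays, 4.75, 4.86 and 4.64 in the WT EGFP+ arrays, 6.14 in the mutant EGFP- array and 4.52 in the WT EGFP- array. The low reading in the arrays labelled WT EGFP+ goes against their label, and where the probe set lies relative to the change in the allele is unknown here. The labels are used for the names of the groups, so every direction between alleles depends on them. In bulk RNA of sorted cells, fewer cells of a type and less RNA per cell cannot be told apart.

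Setting EGFP+ against EGFP- WT cells asks which receptors mark cells that express the WT Foxp3 locus. Of the 7 receptors, 4 were higher in EGFP+ cells and 0 were lower, in limma's moderated test with Benjamini-Hochberg adjusted p-values, where 1.02% of all genes were higher and 0.478% were lower. The 4 were Tnfrsf4, Tnfrsf9, Tnfrsf18 and Tnfrsf1b, all of the TRAF-binding class, while Cd27, which is also of that class, was not among them. The median difference of the 7 receptors was 1.94, and that of all genes was -0.02. The EGFP- group was 1 array, assumed to vary like the replicated groups. Of 9 measured regulatory T cell markers 8 were also higher in EGFP+ cells and 0 were lower, with a median difference of 3.85, and their part in the receptor differences was not tested.

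Tnfrsf4, which encodes the costimulatory receptor OX40, stood at 11.67, 12.02 and 11.84 in the WT EGFP+ arrays and at 8.43 in the WT EGFP- array. All EGFP+ arrays lay far above the EGFP- array. The difference was 3.41 (SE 0.19, 95% interval 2.97 to 3.85, limma adjusted p = 0.00092), or 10.6-fold, and Tnfrsf4 passed the threshold in all 13 alternatives tried. Here and below, counts and ranges over the alternatives keep the probe set, and further probe sets are given by their own values. Every alternative of a comparison with EGFP- cells also keeps the single EGFP- array, so it cannot show how a difference depends on that array.

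Tnfrsf9, which encodes the activation-induced receptor 4-1BB, stood at 9.28, 9.51 and 9.59 in the WT EGFP+ arrays and at 6.74 in the WT EGFP- array. Again no EGFP+ array came near the EGFP- level. The difference was 2.72 (SE 0.18, 95% interval 2.30 to 3.13, limma adjusted p = 0.0017), or 6.58-fold, and this probe set passed in all 13 alternatives tried.

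The 3 probe sets of Tnfrsf9 did not read alike. The second, ordered by mean level, stood at 9.47, 9.57 and 9.21 in the WT EGFP+ arrays and at 5.51 in the WT EGFP- array, below the median of all probe sets, with a difference of 3.91 (SE 0.23, limma adjusted p = 0.00096). The third stayed below that median in every array, between 4.29 and 4.82, and differed by 0.03 (SE 0.21, limma adjusted p = 0.99). Its values are therefore given as readings near the low end of the array only.

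Tnfrsf18, which encodes GITR, stood at 11.32, 11.57 and 11.39 in the WT EGFP+ arrays and at 9.46 in the WT EGFP- array. The groups were well apart, and the difference was 1.96 (SE 0.23, 95% interval 1.44 to 2.49, limma adjusted p = 0.0087), or 3.90-fold. With the title-number sets described below as a block it was 1.80 and did not pass (adjusted p = 0.058).

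Tnfrsf1b, which encodes TNFR2, the TNF receptor without a death domain, stood at 9.53, 10.04 and 9.70 in the WT EGFP+ arrays and at 7.81 in the WT EGFP- array. The difference was 1.94 (SE 0.32, 95% interval 1.20 to 2.68, limma adjusted p = 0.037), or 3.84-fold. It passed in 8 of 13 alternatives. It was lost without WT EGFP+ replicate 1 (adjusted p of 0.075), mutant EGFP+ replicate 1 (0.10) or WT EGFP+ replicate 3 (0.11), within 0.0040 to 0.11 over the alternatives. The further probe set of Tnfrsf1b stood at 8.12, 8.42 and 8.47 in the WT EGFP+ arrays and at 7.14 in the WT EGFP- array, a difference of 1.20 (SE 0.22, limma adjusted p = 0.056).

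The remaining 3 receptors did not pass. Cd27, a receptor present on most naive T cells, stood at 11.20, 11.73 and 10.89 in the WT EGFP+ arrays and at 11.21 in the WT EGFP- array, which lay within the EGFP+ range. It differed by 0.06 (95% interval -0.63 to 0.76), and by -0.17 without WT EGFP+ replicate 2. Tnfrsf1a, which encodes TNFR1, differed by -0.30 (95% interval -0.92 to 0.32) and Fas by -0.07 (95% interval -0.44 to 0.31). All 3 intervals exclude a 2-fold difference in either direction.

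**Figure D1:**
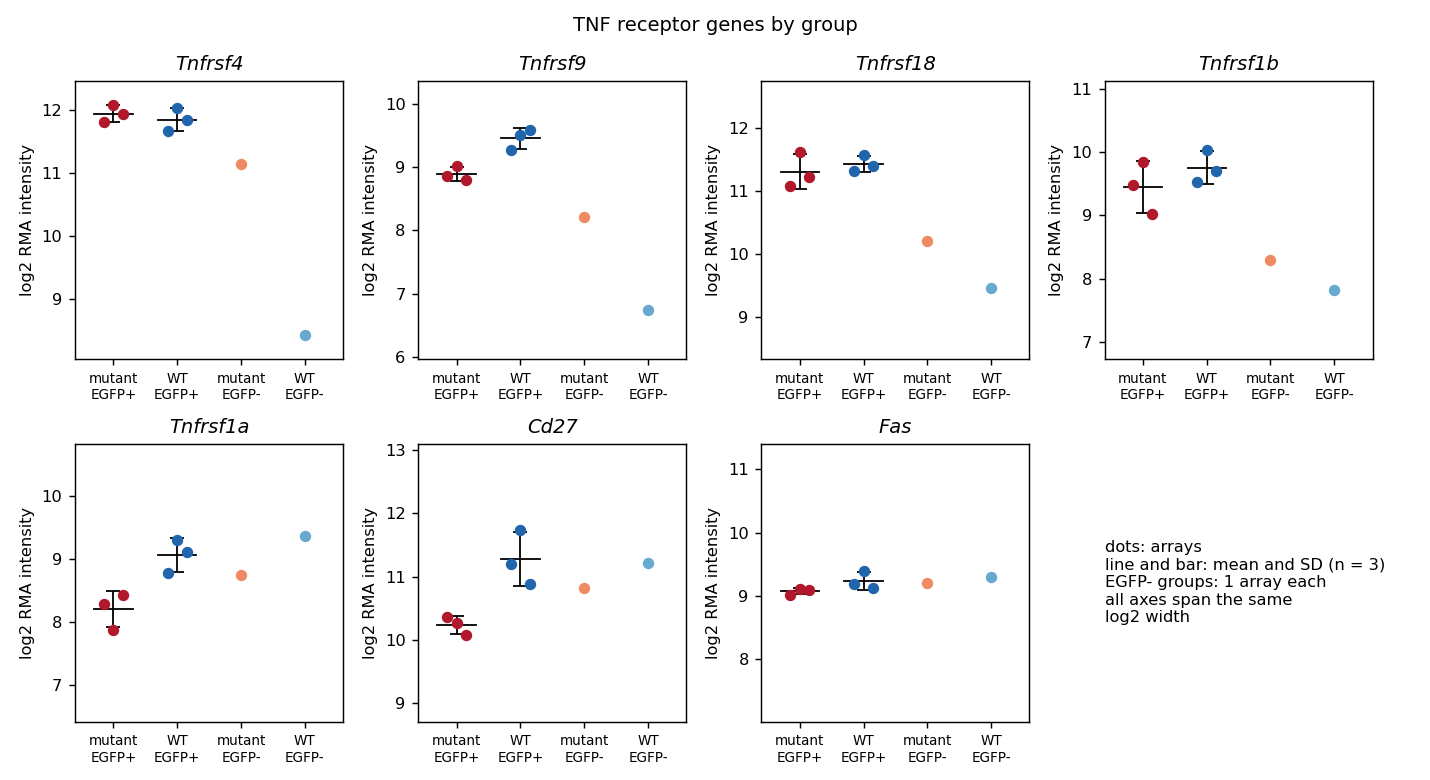
Log2 RMA intensity of the 7 receptors (1 panel each, representative probe set) by group, with dots for arrays and a line and bar for the mean and SD of the EGFP+ groups (n = 3 each). Tnfrsf4, Tnfrsf9, Tnfrsf18 and Tnfrsf1b are lowest in the WT EGFP- array, while Tnfrsf1a, Cd27 and Fas are lowest on average in the mutant EGFP+ arrays.

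With the mutant allele the same receptors were compared between EGFP+ and EGFP- cells. In limma's test 0 of the 7 receptors passed after adjustment, where 0.0879% of all genes passed in either direction, and 4 of the 7 had an unadjusted p under 0.05, where 11% of all genes did. These 4 were again Tnfrsf4, Tnfrsf9, Tnfrsf18 and Tnfrsf1b, each with a positive difference. The median difference of the 7 receptors was 0.68, and that of all genes was 0.02.

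Tnfrsf4 stood at 11.81, 12.07 and 11.93 in the mutant EGFP+ arrays and at 11.15 in the mutant EGFP- array. The EGFP- array lay below all EGFP+ arrays, by 0.79 on average (SE 0.19, 95% interval 0.35 to 1.23, limma adjusted p = 0.25). Tnfrsf9 stood at 8.87, 9.02 and 8.80 in the mutant EGFP+ arrays and at 8.21 in the mutant EGFP- array, a difference of 0.68 (SE 0.18, limma adjusted p = 0.29). For Tnfrsf9 too the EGFP- array was the lowest of the mutant arrays.

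Tnfrsf18 stood at 11.08, 11.62 and 11.22 in the mutant EGFP+ arrays and at 10.20 in the mutant EGFP- array, a difference of 1.11 (SE 0.23, limma adjusted p = 0.19). Tnfrsf1b stood at 9.48, 9.85 and 9.02 in the mutant EGFP+ arrays and at 8.29 in the mutant EGFP- array, a difference of 1.16 (SE 0.32, limma adjusted p = 0.31). Without WT EGFP+ replicate 2 and mutant EGFP+ replicate 3 together, arrays chosen after seeing the data, Tnfrsf1b differed by 1.37 and passed (adjusted p = 0.042, within 0.042 to 0.53 over the alternatives).

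The remaining 3 receptors had negative differences and did not pass. Cd27 differed by -0.58 (limma adjusted p = 0.60), Tnfrsf1a by -0.55 (0.57) and Fas by -0.13 (0.86).

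Whether the EGFP difference itself differed between alleles was tested as an interaction, the difference in mutant cells minus that in WT cells. Of the 7 receptors 1 passed, Tnfrsf4, with a smaller EGFP difference in mutant cells, where 0.066% of all genes passed in either direction and 0.044% in that direction. The EGFP difference of Tnfrsf4 was 0.79 in mutant cells and 3.41 in WT cells, an interaction of -2.62 (SE 0.27, 95% interval -3.24 to -2.00, limma adjusted p = 0.045). For Tnfrsf9 it was 0.68 in mutant cells and 2.72 in WT cells, an interaction of -2.04 (SE 0.25, limma adjusted p = 0.061), which passed without WT EGFP+ replicate 2 (0.049) and spanned 0.042 to 0.29 over the alternatives. Its second probe set gave -3.04 (SE 0.32, limma adjusted p = 0.045). The interactions of Tnfrsf18 (-0.86, limma adjusted p = 0.75), Tnfrsf1b (-0.79, 0.89), Cd27 (-0.64, 0.91), Tnfrsf1a (-0.25, 0.98) and Fas (-0.06, 0.99) did not pass.

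The calls of Tnfrsf4 and of the second Tnfrsf9 probe set were close to the threshold. That of Tnfrsf4 was lost without WT EGFP+ replicate 1 (adjusted p = 0.12) or 3 (0.13) and without mutant EGFP+ replicate 1 (0.14), 2 (0.11) or 3 (0.12), within 0.014 to 0.21 over 13 alternatives, of which 5 passed. The second Tnfrsf9 probe set likewise passed in 5 of 13. The value of Tnfrsf4 itself moved little, between -2.71 and -2.53, and both calls rest on 1 EGFP- array per allele.

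**Figure D2:**
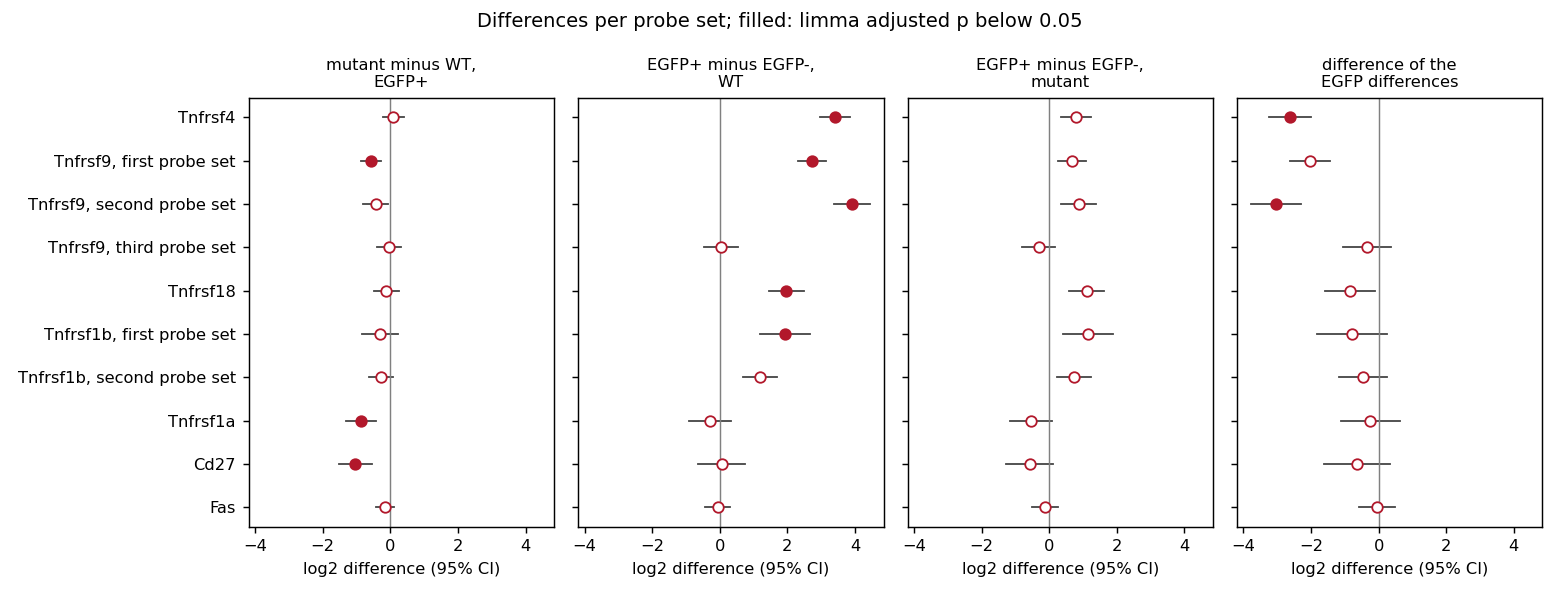
Log2 differences of all 10 probe sets with 95% intervals in the 4 tested comparisons, the last being the EGFP difference in mutant cells minus that in WT cells. Filled points had a limma adjusted p below 0.05. Tnfrsf4, Tnfrsf18, the first and the second probe set of Tnfrsf9 and the first of Tnfrsf1b are filled in the WT comparison of EGFP+ with EGFP- cells, and no point is filled in the mutant one.

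The EGFP- groups are a single array each, so their levels are given side by side with no test. Tnfrsf4 stood at 11.15 in the mutant EGFP- array, against 8.43 in the WT EGFP- array, a difference of 2.71 or 6.55-fold. Tnfrsf9 stood at 8.21 in the mutant array, against 6.74 in the WT array, a difference of 1.47 or 2.77-fold, and its second probe set at 8.12 in the mutant array, against 5.51 in the WT array. These were the 2 of 7 receptors at least 2-fold higher in the mutant array, where 3.78% of all genes were, and 0 were at least 2-fold lower, where 1.04% were.

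Among the other receptors Tnfrsf18 was 1.67-fold higher in the mutant EGFP- array (10.20, against 9.46 in the WT array). Tnfrsf1a read 8.75 in the mutant array, against 9.37 in the WT array, and was thus 1.53-fold lower in the mutant array. Tnfrsf1b (0.48), Cd27 (-0.40) and Fas (-0.10) differed by less than 0.5. The regulatory T cell markers moved in the same direction as Tnfrsf4: their mean level over 9 genes was 8.66 in the mutant EGFP- array and 6.68 in the WT EGFP- array, with Ikzf2 at 11.48 in the mutant array and 7.98 in the WT array. Other lists differed between these 2 arrays as well. The mean of the NK cell markers was 6.02 in the mutant and 5.52 in the WT array, and that of the CD8 T cell markers 8.05 and 6.98. Members of both lists went both ways: Cd8a stood at 8.52 in the mutant and 6.28 in the WT array, and Cd8b1 at 7.59 and 7.67. Eomes (8.73 and 6.25), Ncr1 (6.41 and 5.37) and Klra8 (3.76 and 3.65) were higher in the mutant array. Klrd1 (6.67 and 7.43) and Klre1 (4.56 and 4.89) were lower there. The mean of the early response and heat shock genes was lower in the mutant array, at 9.37, against 9.81 in the WT array. The part of these lists in the receptor levels was not tested.

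**Figure D3:**
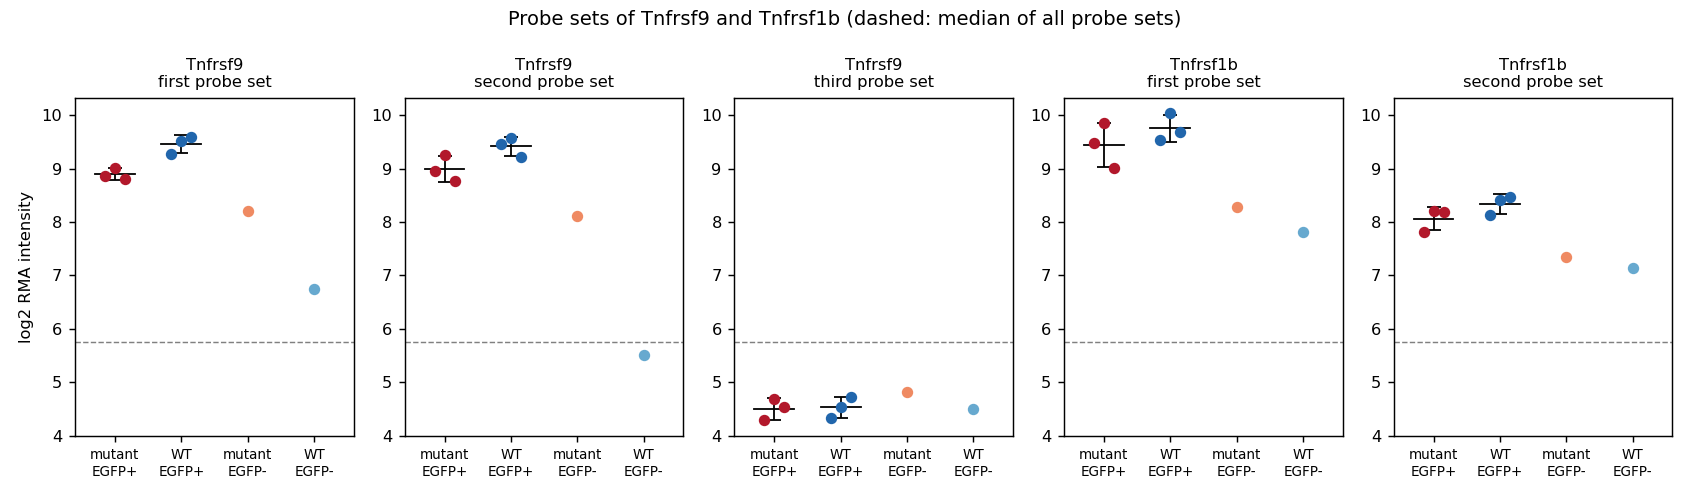
Log2 RMA intensity of the 3 probe sets of Tnfrsf9 and the 2 of Tnfrsf1b by group, with dots for arrays, a line and bar for mean and SD (n = 3 each, EGFP+ groups) and a dashed line at the median of all probe sets (5.75). The third probe set of Tnfrsf9 stays below the dashed line in every array, and the second lies below it in the WT EGFP- array alone.

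The comparison of the alleles in EGFP+ cells asks how the receptors differ with the allele when the Foxp3 locus is expressed. Of the 7 receptors 3 were lower in mutant EGFP+ cells, where 6.02% of all genes were lower, and 0 were higher, where 10.4% were. The 3 were Cd27, Tnfrsf1a and Tnfrsf9. Tnfrsf4, Tnfrsf18 and Tnfrsf1b, which passed in the EGFP comparison of WT cells, were not among them. The median difference of the 7 receptors was -0.31, and that of all genes was 0.02.

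Cd27, which binds CD70 and supports T cell survival, stood at 10.37, 10.26 and 10.07 in the mutant EGFP+ arrays and at 11.20, 11.73 and 10.89 across the WT EGFP+ arrays. The groups did not overlap. The means were 10.23 ± 0.15 in mutant and 11.27 ± 0.43 in WT arrays (SD, n = 3 each), a difference of -1.04 (SE 0.21, 95% interval -1.53 to -0.55, limma adjusted p = 0.017), or 2.06-fold. The adjusted p lay just above the threshold without WT EGFP+ replicate 1 (0.055) or without mutant EGFP+ replicate 1 (0.052), 2 (0.057) or 3 (0.055), within 0.0090 to 0.057 over the alternatives.

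Tnfrsf1a, which encodes the death domain receptor TNFR1, stood at 8.29, 7.88 and 8.43 in the mutant EGFP+ arrays and at 8.77, 9.30 and 9.12 across the WT EGFP+ arrays. All mutant arrays were below all WT arrays. The means were 8.20 ± 0.28 in mutant and 9.06 ± 0.27 in WT arrays (SD, n = 3 each), a difference of -0.86 (SE 0.19, 95% interval -1.30 to -0.42, limma adjusted p = 0.023), or 1.82-fold. The call was lost without mutant EGFP+ replicate 1 (0.066) or 2 (0.069) or WT EGFP+ replicate 3 (0.078), within 0.019 to 0.078 over the alternatives.

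Tnfrsf9 averaged 8.89 ± 0.11 in the mutant EGFP+ arrays and 9.46 ± 0.16 in the WT EGFP+ arrays (SD, n = 3 each), with no overlap. The difference was -0.57 (SE 0.13, 95% interval -0.86 to -0.27, limma adjusted p = 0.025), or 1.48-fold. It was lost without mutant EGFP+ replicate 1 (0.086) or 3 (0.075) or WT EGFP+ replicate 3 (0.089), within 0.018 to 0.089 over the alternatives. The second probe set stood at 8.95, 9.25 and 8.76 in the mutant EGFP+ arrays and at 9.47, 9.57 and 9.21 across the WT EGFP+ arrays, where the groups overlap, and it did not pass (-0.43, SE 0.16, limma adjusted p = 0.14). Nor did the third (-0.03, SE 0.15, limma adjusted p = 0.94).

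The other 4 receptors did not pass. Tnfrsf4 averaged 11.94 ± 0.13 in the mutant and 11.84 ± 0.18 in the WT EGFP+ arrays (SD, n = 3 each), a difference of 0.09 (95% interval -0.22 to 0.40, limma adjusted p = 0.76). Tnfrsf18 averaged 11.31 ± 0.28 in the mutant and 11.43 ± 0.13 in the WT EGFP+ arrays (SD, n = 3 each), a difference of -0.12 (95% interval -0.49 to 0.25, limma adjusted p = 0.73). The intervals of both receptors exclude a 2-fold difference in either direction.

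Tnfrsf1b averaged 9.45 ± 0.42 in the mutant and 9.75 ± 0.26 in the WT EGFP+ arrays (SD, n = 3 each), with overlapping arrays and a difference of -0.31 (SE 0.23, limma adjusted p = 0.48). Fas, the receptor of Fas ligand, stood at 9.02, 9.10 and 9.09 in the mutant EGFP+ arrays and at 9.19, 9.40 and 9.12 across the WT EGFP+ arrays. Its arrays did not overlap, yet the difference of -0.16 (95% interval -0.43 to 0.10, limma adjusted p = 0.46) was small. With Fas, 4 of the 7 receptors had all mutant arrays below all WT arrays, where 14% of all genes did.

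By the leading 2 digits of the numbers in their titles, whose meaning the labels do not state, the arrays fall into 3 sets, each with 1 mutant and 1 WT EGFP+ array. Within these sets the mutant array differed from the WT array by -0.83, -1.47 and -0.81 for Cd27, by -0.48, -1.42 and -0.69 for Tnfrsf1a and by -0.41, -0.50 and -0.79 for Tnfrsf9. For these 3 receptors all mutant arrays lay below all WT arrays, so any pairing gives negative differences and the signs add no support. Tnfrsf4 differed by 0.14, 0.05 and 0.09. Both EGFP- arrays belong to the same set, and within it the EGFP difference of Tnfrsf4 was 0.66 with the mutant and 3.23 with the WT allele, and that of Tnfrsf9 was 0.65 with the mutant and 2.54 with the WT allele.

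Regulatory T cell markers also differed between the alleles in EGFP+ cells. Of 9 measured, 6 were lower in mutant cells and 1, Foxp3 (6.52), was higher, with a median of -0.75. The 8 other than Foxp3 averaged 10.04, 10.11 and 9.75 in the mutant EGFP+ arrays, against 11.05, 11.06 and 10.90 in the WT EGFP+ arrays, with no overlap. Gpr83, an orphan receptor, fell by 1.93 (limma adjusted p = 0.0033), the integrin gene Itgae by 1.73 (0.019) and Nrp1, which encodes neuropilin-1, by 1.39 (0.015). The call of Itgae was lost without WT EGFP+ replicate 1 (0.066) or mutant EGFP+ replicate 1 (0.061), and that of Nrp1 without mutant EGFP+ replicate 1 (0.068). The count of 7 passing markers became 4 without either of these arrays. The part of these markers in the lower Cd27, Tnfrsf1a and Tnfrsf9 was not tested.

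Early response genes and markers of other cells were also set side by side. Of 18 early response and heat shock genes 4 were lower and 1 was higher in mutant EGFP+ cells, and the list means of single arrays overlapped between the groups. The mean of the 18 was 9.89, 9.87 and 8.75 in the mutant EGFP+ arrays and 10.61, 9.68 and 10.67 in the WT EGFP+ arrays. Without the lowest array of each of these groups together, Cd27 differed by -0.73 (limma adjusted p = 0.018) and Tnfrsf1a by -0.86 (0.020), and both still passed. Tnfrsf9 differed by -0.49 and did not (0.082). Of 5 measured NK cell markers 2 were higher in mutant EGFP+ cells, Klrd1 (3.10) and Eomes (0.91, lost without WT EGFP+ replicate 1 or 3 or mutant EGFP+ replicate 1 or 2, at adjusted p of 0.060 to 0.0996). The mean over the 5 was 5.60 to 5.84 in the mutant and 4.73 to 4.94 in the WT EGFP+ arrays, while the defining receptor gene Ncr1 lay below the median of all probe sets in all 6. The 2 CD8 T cell markers averaged 6.26 to 8.12 in the mutant and 5.94 to 6.71 in the WT EGFP+ arrays, which overlap, and 0 passed. The 10 myeloid markers averaged 6.16 to 6.59 in the mutant and 6.27 to 7.25 in the WT EGFP+ arrays, and 0 passed. The 9 measured B cell markers averaged 5.19 to 5.38 in the mutant and 5.33 to 5.69 in the WT EGFP+ arrays, and 0 passed. Both means were highest in WT EGFP+ replicate 3. The part of these markers in the receptor differences was not tested.

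The order of the 4 groups therefore took a few forms, read from group means and from whether arrays overlapped. For Tnfrsf4 the mutant and WT EGFP+ groups overlapped at the top, followed by the mutant EGFP- and the WT EGFP- array. Tnfrsf18 and Tnfrsf1b had the same lower order, with overlapping EGFP+ groups led by WT. Tnfrsf9 had WT EGFP+ cells above mutant EGFP+ cells without overlap, then the mutant and the WT EGFP- array. For Tnfrsf1a the order was the WT EGFP- array, WT EGFP+ cells, the mutant EGFP- array and mutant EGFP+ cells, with no overlap between neighbours. Each of these steps sets 1 array against 3, and the EGFP differences of Tnfrsf1a did not pass. The nearest arrays were close, at 9.37 and 9.30 in the first step and 8.77 and 8.75 in the second. For Cd27 the WT groups overlapped at the top, and mutant EGFP+ cells were lowest, below the mutant EGFP- array. Fas spanned 9.02 to 9.40 over all 8 arrays, and only the mutant EGFP+ group lay apart from its neighbour.

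Ligands of these receptors were described next. Of 7 ligand genes 6 were measured, and 3 were higher and 0 lower in mutant than in WT EGFP+ cells, with a median of 0.56. For this list and those below, the shares of all genes between the alleles were 10.4% higher and 6.02% lower. In the EGFP comparison of WT cells they were 1.02% higher and 0.478% lower. Tnfsf9, the ligand of 4-1BB, stood at 7.06, 6.90 and 7.12 in the mutant EGFP+ arrays and at 5.72, 6.07 and 5.80 across the WT EGFP+ arrays. It rose by 1.17 (SE 0.13, limma adjusted p = 0.0013), the opposite direction to its receptor Tnfrsf9 in these cells. In the EGFP- arrays Tnfsf9 stood at 6.35 with the mutant and 5.26 with the WT allele, and Tnfrsf9 was also higher in the mutant array. Cd70, the ligand of CD27, stood at 6.03, 6.45 and 5.78 in the mutant EGFP+ arrays and at 4.89, 4.37 and 4.46 across the WT EGFP+ arrays, where it lay below the median of all probe sets. It rose by 1.52 (SE 0.21, limma adjusted p = 0.0031), again opposite to its receptor. Cd70 stood at 5.52 in the mutant EGFP- array and at 4.51 in the WT EGFP- array, both below that median.

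Fasl, the ligand of Fas, stood at 7.94, 7.65 and 8.11 in the mutant EGFP+ arrays and at 6.04, 5.88 and 6.92 across the WT EGFP+ arrays. It rose by 1.62 (SE 0.27, limma adjusted p = 0.0074), and its further probe set differed by 1.08. In the mutant EGFP- array it stood at 7.23 and in the WT EGFP- array at 7.26. Between EGFP+ and EGFP- cells of the WT allele 0 of the 6 ligands passed. The smallest p-values there were those of Lta, which encodes lymphotoxin alpha, a ligand of TNFR1 and TNFR2 (1.87, limma adjusted p = 0.062, and 0.046 without WT EGFP+ replicate 2 or 0.023 without mutant EGFP+ replicate 2, within 0.019 to 0.31 over the alternatives), and of Tnfsf9 (0.60, limma adjusted p = 0.31).

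Of 21 other receptors of the superfamily 20 were measured. Of these 1 was higher and 1 lower in mutant than in WT EGFP+ cells, where 10.4% of all genes were higher and 6.02% lower. Tnfrsf8, which encodes CD30, rose by 0.99 (SE 0.15, limma adjusted p = 0.0056). Its level was 6.68, 6.66 and 6.44 in the mutant EGFP+ arrays. In the WT EGFP+ arrays it was 5.73, 5.77 and 5.31, close to or below the median of all probe sets (5.75). It neighbours Tnfrsf1b on chromosome 4. Tnfrsf12a, which encodes the TWEAK receptor, fell by 0.79 (SE 0.17, limma adjusted p = 0.019), and this call was lost without WT EGFP+ replicate 1 (0.078) or 3 (0.069) and without mutant EGFP+ replicate 1 (0.072) or 3 (0.062), within 0.0033 to 0.078 over the alternatives. Between EGFP+ and EGFP- WT cells 0 of the 20 passed, with Tnfrsf12a at 0.81 (limma adjusted p = 0.27, and 0.038 without WT EGFP+ replicate 2, within 0.025 to 0.53) and Tnfrsf13b, a receptor best known on B cells, at 0.51 (0.27).

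Of 6 TRAF adaptors, which couple the costimulatory receptors to NF-kappaB, 5 were measured. Between the alleles 1 was lower and 0 higher in mutant EGFP+ cells: Traf4 fell by 0.64 (SE 0.14, limma adjusted p = 0.025). It lost its call without WT EGFP+ replicate 1 (0.067) or 3 (0.062) and without mutant EGFP+ replicate 2 (0.075) or 3 (0.064), within 0.020 to 0.075. In the EGFP comparison of WT cells 0 of the 5 passed. Traf1, an adaptor induced by NF-kappaB, stood at 11.44, 9.96 and 11.32 in the WT EGFP+ arrays and at 8.43 in the WT EGFP- array, a difference of 2.48 (SE 0.61, limma adjusted p = 0.18). WT EGFP+ replicate 2 was the low array, and without it the difference was 2.95 (0.012, within 0.00084 to 0.39 over the alternatives). Traf2 differed by 0.32 (0.68).

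Of 12 death domain and apoptosis adaptors 10 were measured, and 4 were higher and 0 lower in mutant than in WT EGFP+ cells. Bid, which links death receptors to mitochondria, rose by 1.06 (SE 0.14, limma adjusted p = 0.0024). Siva1, which binds CD27, rose by 0.81 (SE 0.16, limma adjusted p = 0.015), Ripk3, a kinase of necroptosis, by 0.70 (SE 0.11, 0.0049), and Fadd, the adaptor of Fas, by 0.67 (SE 0.13, 0.016). Further probe sets of Siva1 differed by 0.31 to 1.39, and its call was lost without mutant EGFP+ replicate 1 (0.065) or 2 (0.059), within 0.013 to 0.065. That of Fadd was lost without any of the EGFP+ arrays except WT replicate 2 (0.051 to 0.059), within 0.0059 to 0.059 over the alternatives. In the EGFP comparison of WT cells 0 of the 10 passed, with Faim at 0.63 (limma adjusted p = 0.35) and Bid at 0.51 (0.45).

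Of 16 genes of NF-kappaB signalling 14 were measured, and 3 were lower and 0 higher in mutant than in WT EGFP+ cells. Birc2, a ubiquitin ligase at TNF receptor complexes, fell by 0.98 (SE 0.20, limma adjusted p = 0.017), the kinase gene Ikbkb by 0.64 (SE 0.12, 0.011) and the NF-kappaB subunit gene Rela by 0.57 (SE 0.14, 0.035). The call of Birc2 was lost without WT EGFP+ replicate 1 (0.068) or 3 (0.066) and without mutant EGFP+ replicate 1 (0.066) or 3 (0.056), and that of Rela without any EGFP+ array except WT replicate 2 (0.086 to 0.12), within 0.0015 to 0.068 for Birc2 and 0.0072 to 0.12 for Rela over the alternatives. In the EGFP comparison of WT cells 0 of the 14 passed, with Relb at 1.06 (limma adjusted p = 0.078, and 0.018 without WT EGFP+ replicate 2, within 0.014 to 0.32) and Tank at 0.67 (0.088).

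All 10 feedback inhibitors of NF-kappaB were measured. Tnip1, a ubiquitin-binding inhibitor, was the 1 gene that passed in either comparison. It stood at 10.78, 10.91 and 10.90 in the mutant EGFP+ arrays and at 11.86, 11.52 and 11.85 across the WT EGFP+ arrays, a difference of -0.88 (SE 0.13, limma adjusted p = 0.0045). In the WT EGFP- array it stood at 10.60, and the WT EGFP difference was 1.14 (SE 0.18, limma adjusted p = 0.033). The call of the EGFP difference was lost without any EGFP+ array except WT replicate 2 (0.066 to 0.11), within 0.0080 to 0.20 over the alternatives. In the EGFP comparison of mutant cells and in the interaction, 0 genes of these 6 lists passed.

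**Figure D4:**
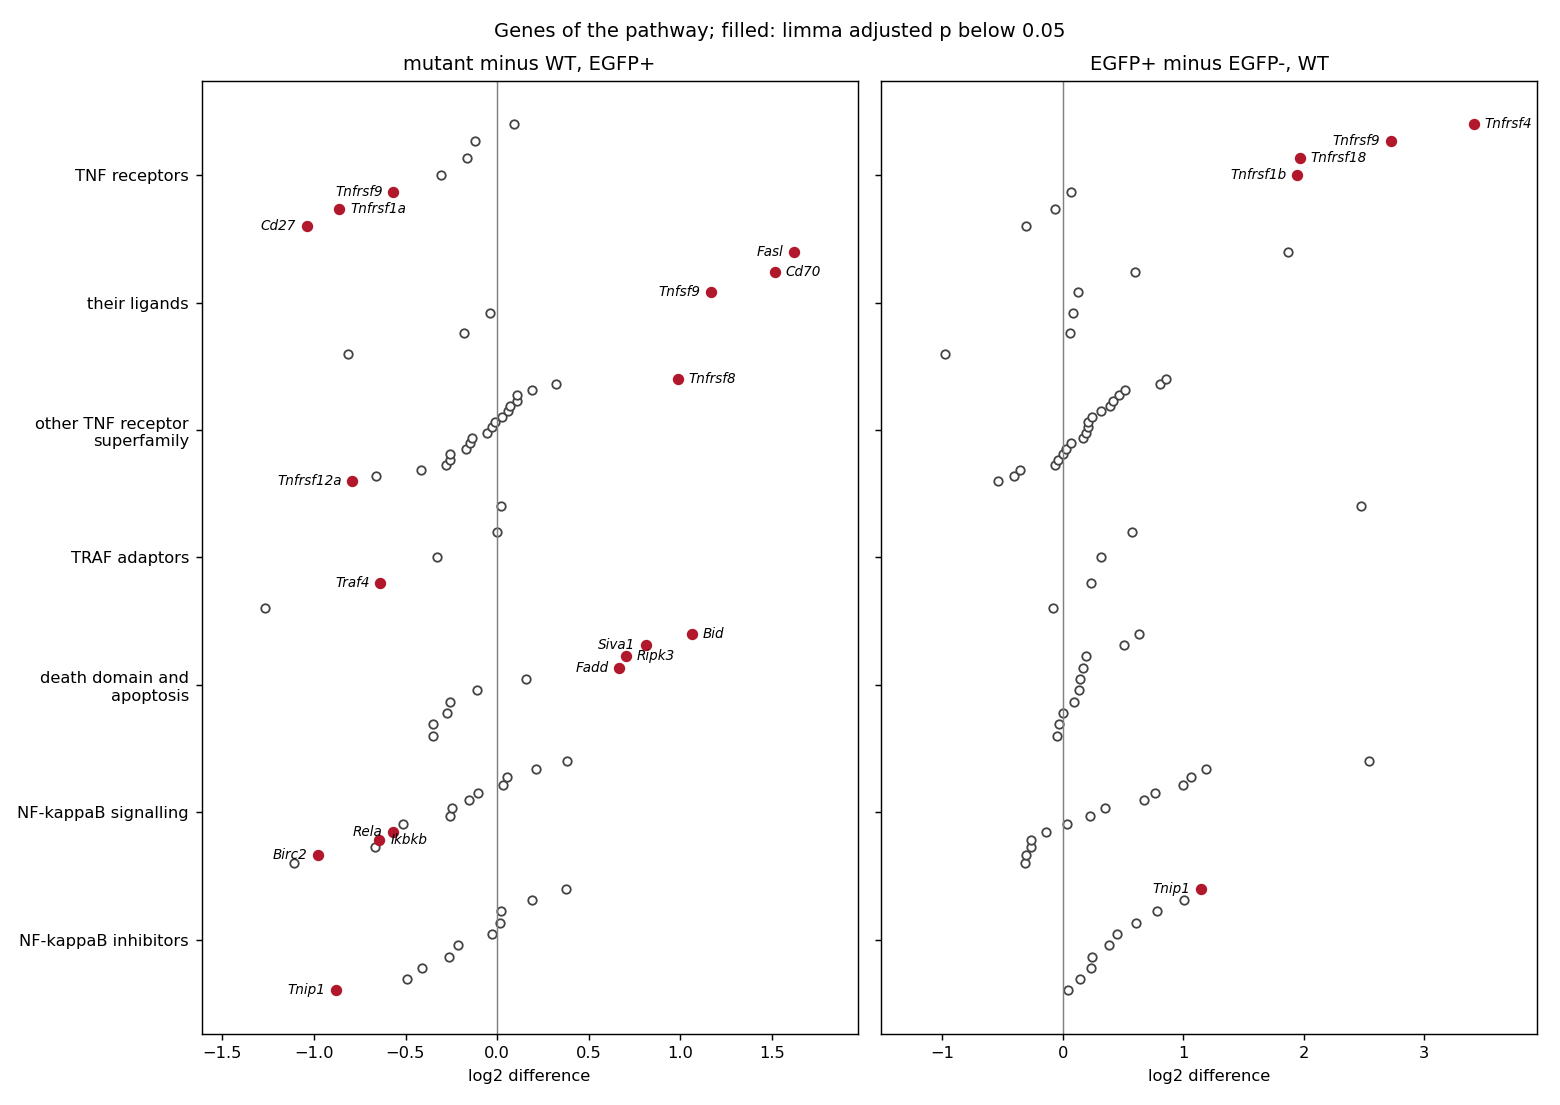
Log2 difference of each measured gene of the receptors and of the 6 related lists, for mutant minus WT EGFP+ cells (left) and EGFP+ minus EGFP- WT cells (right). Filled and named points had a limma adjusted p below 0.05, and the height within a list follows the rank. The receptors hold 4 filled points on the right and 3 on the left, while of the related genes 1, Tnip1, is filled on the right.

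The genes whose level ran most like that of a receptor were taken from 3738 genes with a range of at least 1 over the 8 arrays, by Pearson correlation. The points share the 4 groups, so these values describe the arrays and carry no test. Tnfrsf4 ran closest to Tiam1 (0.992), an exchange factor for Rac, Prnp (0.991), the prion protein gene, and Ikzf2 (0.990), the transcription factor Helios of regulatory T cells. Tnfrsf9 ran closest to Rnf216 (0.988), the IL-2 receptor gene Il2ra (0.986) and Nrn1 (0.973). Tnfrsf18 ran closest to Socs2 (0.984), a suppressor of cytokine signalling, Swap70 (0.981) and Lonrf1 (0.976). Tnfrsf1b ran closest to S100a10 (0.969), Acsbg1 (0.968) and Rnase4 (0.966).

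The same was listed for the 3 receptors that did not pass between EGFP+ and EGFP- WT cells. Tnfrsf1a ran closest to Mdc1 (0.985), a DNA damage mediator, Dapk1 (0.973), a death-associated kinase, and Dgka (0.972), a diacylglycerol kinase of T cells. Cd27 ran closest to Irf2bpl (0.991), the corepressor gene Tle1 (0.987) and Cyp2d22 (0.983), and Fas to BC147527 (0.982), Zfp595 (0.974) and Zfp758 (0.964). Fas itself spanned only 0.38 over the arrays, less than the range of at least 1 set for the compared genes, so its correlations follow small changes. Among the receptors themselves, Tnfrsf4, Tnfrsf9, Tnfrsf18 and Tnfrsf1b correlated with each other at 0.838 to 0.963, and Cd27, Tnfrsf1a and Fas with each other at 0.763 to 0.882. Between these sets the correlations lay between -0.511 and 0.0129.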

How the data were processed

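Total RNA of sorted mouse CD4+ T cells had been labelled with biotin and hybridised to 8 Affymetrix arrays, per the labels' protocols. The authors deposited linear intensity values per probe set that RMA had produced, per the submitters' processing notes. RMA corrects background, quantile-normalizes and summarises probes, and it compresses differences at low intensity. Its version is not stated in those notes. No detection calls were used, and folds are therefore printed only where both group means exceeded the median of all probe sets.

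Of 45101 probe sets, 64 controls were left out. A single symbol was annotated for 34945, several for 932 and none here for 9160. A current gene record was found for 34741. Log2 was taken with no pseudocount. Group means of the 4 groups were fitted to all 8 arrays with limma 3.58.1 in R 4.3.3 (4 residual and 3.72 prior degrees of freedom), two-sided, with Benjamini-Hochberg adjustment over 45037 probe sets and a threshold of 0.05. With 3 arrays against 3, the smallest exact permutation p is 0.1. The number of arrays limits the precision. The fit was tested on simulated data.

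The members and the gene lists were chosen with earlier results of these data known. All members were named, with up to 4 genes of each list past the threshold by size (up to 2 by p where none passed) and, per member, the 3 genes with the highest correlation. Promoter windows came from RefSeq (GRCm38.p6). Alternatives were median-centred arrays, repeated quantile normalization, a filter on dim probe sets, 16 added before log2, an intensity trend, title-number sets as a block, only the EGFP+ groups, further probe sets and each EGFP+ array left out. Leaving out 2 arrays together was chosen after seeing the data.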

Additional observations from a re-analysis of the deposited data

Results flagged for a closer look

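Tnfrsf4 and the second probe set of Tnfrsf9 are listed because their EGFP differences differed between the alleles in the test of that difference itself. For Tnfrsf4 the EGFP difference was 0.79 in mutant cells and 3.41 in WT cells, and mutant minus WT was -2.62 (SE 0.27, limma adjusted p = 0.045). For the second probe set of Tnfrsf9 it was 0.87 in mutant cells and 3.91 in WT cells, and mutant minus WT was -3.04 (SE 0.32, limma adjusted p = 0.045). In both cases the levels of the EGFP+ groups lay within 0.5 of each other, while the single mutant EGFP- array lay 2.71 (Tnfrsf4) and 2.61 (Tnfrsf9) above the single WT EGFP- array. Each value therefore turns on 1 array per allele.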

How the results depend on the processing

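In the comparison of the alleles in EGFP+ cells, 3 receptor genes passed, against 1 with the title-number sets as a replicate block and 0 to 3 without single EGFP+ arrays, and 5734 of all probe sets passed, against 3355 to 7556 without single arrays. In the EGFP comparison of WT cells 4 receptor genes passed, against 2 with the replicate block and 3 to 4 without single arrays, and 496 of all probe sets passed, against 83 with the block, 259 to 1193 without single arrays and 1845 without the 2 arrays lowest in early response genes (WT EGFP+ replicate 2, mutant EGFP+ replicate 3). In the EGFP comparison of mutant cells 0 receptor genes passed, against 1 without those 2 arrays and 0 without any single array. There 34 of all probe sets passed, against 17 without dim probe sets, 54 with an intensity trend, 1 with the block, 4 to 84 without single arrays and 325 without the 2 arrays. In the interaction 1 receptor gene passed, against 0 without dim probe sets, with 16 added or with the block, 0 to 2 without single arrays and 2 without the 2 arrays. There 18 of all probe sets passed, against 3 without dim probe sets, 4 with 16 added, 42 with a trend, 0 with the block, 2 to 85 without single arrays and 171 without the 2 arrays. The title numbers were not taken to pair the arrays, since their meaning is not stated. The deviations of the mutant and WT arrays of a set from their group means correlated at 0.12, 0.05 and -0.10. Those of arrays from different sets correlated at -0.15 to 0.093. With 3 arrays per group, these correlations cannot decide whether the arrays of a set share an effect. Under the replicate block Tnfrsf1a (limma adjusted p = 0.059) and Tnfrsf9 (0.051) lost their calls between the alleles, Tnfrsf18 (0.058) and Tnfrsf1b (0.089) theirs between EGFP+ and EGFP- WT cells, and Tnfrsf4 (0.21) its interaction, and Cd27 between the alleles and Tnfrsf4 and Tnfrsf9 in WT cells held theirs. Tnfrsf1b lost its WT call and Tnfrsf4 its interaction with 16 added (0.069 and 0.068), and Tnfrsf4 its interaction without dim probe sets (0.052).

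Directions turned only for values that had not passed. Between the alleles, the third probe set of Tnfrsf9 (-0.03) ran between -0.13 and 0.078 without single arrays, with 0.066 without WT EGFP+ replicate 3, and Tnfrsf1b (-0.31) gave 0.049 without the 2 arrays. In WT cells the third Tnfrsf9 probe set (0.03) gave -0.17 with the block and ran between -0.064 and 0.13 without single arrays. Cd27 there (0.06) gave -0.17 without the 2 arrays and ran between -0.17 and 0.26 without single arrays. In mutant cells Tnfrsf9 (0.68) gave -0.31 with the third probe set. The interaction of Fas (-0.06) gave 0.0085 without the 2 arrays and ran between -0.12 and 0.018 without single arrays. The cause was not tested.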
